A study of Mus musculus with 8 samples.

Results

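Cortex and hippocampus of mice labelled Tet1 KO were compared with each other. The 4 samples were chosen by genotype and tissue as their titles give them, 2 KO cortex and 2 KO hippocampus samples out of 8 in the series. The other 4 are wild-type (WT) cortex and hippocampus, 2 of each, and are used here only to set each KO tissue difference beside the same difference in WT. All mice were naïve animals of a mixed 129 and C57BL6 background, and RNA came from snap-frozen tissue. Every KO sample was labelled with Cy5 and hybridised to one of 4 two-colour Agilent arrays against the WT sample of the same tissue and number, labelled with Cy3, so the comparison of the KO tissues lies within 1 dye. The labels give neither age nor sex, do not say which part of Tet1 was deleted, and do not state whether replicates 1 and 2 are separate animals or whether tissues with one number share an animal. Every p-value here thus reflects how far these particular samples scattered, and that scatter could be technical.

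Tet1 is a dioxygenase that oxidises 5-methylcytosine, the first step towards removing this mark from DNA. Cortex and hippocampus both arise from the pallium of the forebrain and share most of their cell types. They differ in their excitatory neurons: the cortex stacks layers with different projection targets, and the hippocampus holds the granule neurons of the dentate gyrus and the pyramidal neurons of the CA fields, which a chain of excitatory synapses joins. The comparison asks which of these regional programmes stand apart in tissue labelled Tet1 KO.

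Levels are the log2 values that the authors deposited for each channel, and a difference is KO cortex minus KO hippocampus on that log2 scale, so that positive values are higher in cortex. A gene entered the fit if its brightest probe exceeded background clearly in both samples of 1 KO tissue or of both, which left 16800 of 23655 gene names, and 16110 of these were well above background on all 4 KO arrays. In a KO channel 66.6% to 67.2% of spots were well above background, in a WT channel 49.7% to 51.7%, and 0 were saturated. "Called" means a Benjamini-Hochberg adjusted p under 0.05 over all genes kept in the limma fit. With 2 arrays per tissue, their number limits the precision. In whole tissue, fewer cells of a type and less RNA per cell cannot be told apart. Probe positions are those of the files, in mm9.

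Of the 16800 genes, 2617 were called (15.6%). KO cortex was higher for 1427 (8.49%) and KO hippocampus for 1190 (7.08%), and the difference was at least 2-fold for 268 and 170 of these. Of the calls, 54.5% were thus higher in cortex, against 44.1% when the scanner signals were used with every background value. Both cortex samples lay above both hippocampus samples for 28.4% of all genes, and both below for 31.7%, so groups that do not overlap were common among all genes. The median difference over all genes was -0.01, the median size 0.12, and the smallest called size 0.25. Counts of list members below are to be read beside the 8.49% and 7.08% of all genes called higher in cortex and in hippocampus. Leaving out a sample leaves 1 residual degree of freedom, and the counts in cortex and hippocampus then fell to 468 and 357 without cortex replicate 1, 632 and 460 without cortex replicate 2, 975 and 790 without hippocampus replicate 1, and 1109 and 880 without hippocampus replicate 2.

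None of the 3 Tet genes was called between the KO tissues. Tet1 itself measured 8.79 and 8.98 in KO cortex and 8.97 and 8.89 in KO hippocampus at its brightest probe (chr10:62274448-62274507), which was well above background in all 4 samples. The 2 tissues overlapped, and the difference was -0.04 ± 0.09 (SE, n = 2 per tissue, limma adjusted p = 0.80). In WT this probe read 8.93 and 9.11 in cortex and 9.13 and 8.94 in hippocampus, close to the KO values, and a probe outside the deleted part would check nothing. Its other 2 probes, with mean KO levels of 8.46 and 8.23, were also well above background in all 4 KO samples and differed by -0.02 and -0.01. Tet2 differed by -0.11 ± 0.09 and Tet3 by 0.00 ± 0.08 between the KO tissues, and neither was called. The sign of the Tet1 and Tet3 differences turned under some processing alternatives.

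The genes furthest apart in favour of hippocampus were mostly markers of its own neuron types. Lct, which encodes lactase and marks dentate granule neurons in mice, measured 9.14 and 8.83 in KO cortex and 13.25 and 12.90 in KO hippocampus (probe at chr1:130181389-130181448). Both hippocampus samples lay far above both cortex samples, by 17.0-fold (difference -4.09 ± 0.16, limma adjusted p = 0.0011). Spink8, a protease inhibitor on the CA1 list, measured 8.66 and 8.54 against 12.89 and 11.81 (chr9:109729037-109729096). Again the tissues did not overlap, though the hippocampus samples differed from each other by more than the cortex samples did, and the difference was -3.75 ± 0.35 (adjusted p = 0.0048). Lhx9, a LIM-homeodomain transcription factor, was near the background in cortex at 7.5 and 7.4 and reached 10.85 and 10.81 in hippocampus (chr1:140721909-140721968), a difference of -3.38 ± 0.067 with almost no spread within a tissue.

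Other hippocampal genes among the 10 largest differences spanned receptors, secreted factors and cell adhesion. Shisa6, an auxiliary protein of AMPA receptors, measured 9.62 and 9.60 in cortex and 12.89 and 12.69 in hippocampus, 9.06-fold higher in hippocampus. Npy2r, a presynaptic receptor for neuropeptide Y, measured 8.91 and 8.92 against 12.04 and 11.89, an 8.28-fold difference. These cortex replicates were nearly equal. Dsp, the desmosomal protein desmoplakin, differed by -3.11 ± 0.17. Il16, an interleukin, Tspan18, a tetraspanin, and Lefty1, a secreted antagonist of Nodal signalling, differed by -2.77, -2.77 and -2.74. The 9 genes named here were called in every alternative that was run, and the difference in WT had the same sign for each, between -4.20 for Lct and -2.63 for Npy2r.

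The genes furthest apart in favour of cortex were of a different kind: markers of choroid plexus and of striatum led them. Ttr, the thyroid hormone carrier transthyretin that choroid plexus epithelium secretes, measured 17.26 and 16.62 in KO cortex and 11.40 and 13.83 in KO hippocampus (chr18:20828519-20828577). The tissues did not overlap, but the hippocampus samples were far apart from each other, and the difference of 4.33 ± 0.80 (20.1-fold, adjusted p = 0.028) was no longer called without cortex replicate 1 (adjusted p = 0.13) or cortex replicate 2 (0.088). Kcnj13, an inward rectifier potassium channel of choroid plexus, measured 11.64 and 11.31 against 7.96 and 7.88, 11.8-fold higher in cortex, and Kcne2, a potassium channel accessory subunit of the same epithelium, was 10.9-fold higher. In WT, Ttr differed by -0.08 ± 2.56 and Kcnj13 by 0.00 ± 1.29, with the samples of each tissue far apart. Ttr read 16.22 and 12.06 in WT cortex and 10.61 and 17.82 in WT hippocampus. Kcne2 was well above background in 2 WT samples and was not tested there. It read 10.49 and 8.39 in WT cortex and 7.32 and 11.08 in WT hippocampus, a difference of 0.24. With all 8 samples in 1 fit and the array as a random block, none of the 3 was called (adjusted p = 0.242, 0.0789 and 0.0969), and Ttr was not with processed signals (0.0651).

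Adora2a, an adenosine receptor of striatal indirect-pathway neurons, measured 11.65 and 11.76 in KO cortex and 8.16 and 8.63 in KO hippocampus. Scn4b, a sodium channel beta subunit, measured 14.19 and 14.22 against 11.06 and 10.90, with a difference of 3.23 ± 0.077. Rgs9, which shortens G protein signals in striatal neurons, differed by 2.87 ± 0.081, so that these striatal genes stood 7.29-fold to 9.9-fold higher in cortex. Dkkl1, a Dickkopf-like protein, Serpina9, a serpin, and Rasgef1c, a Ras exchange factor, differed by 3.59, 2.97 and 2.95. Rasgef1c lost the call without cortex replicate 1 (adjusted p = 0.0675) or cortex replicate 2 (0.0545). In WT these 6 differed by 3.08 to 3.98, in the same direction.

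**Figure D1:**
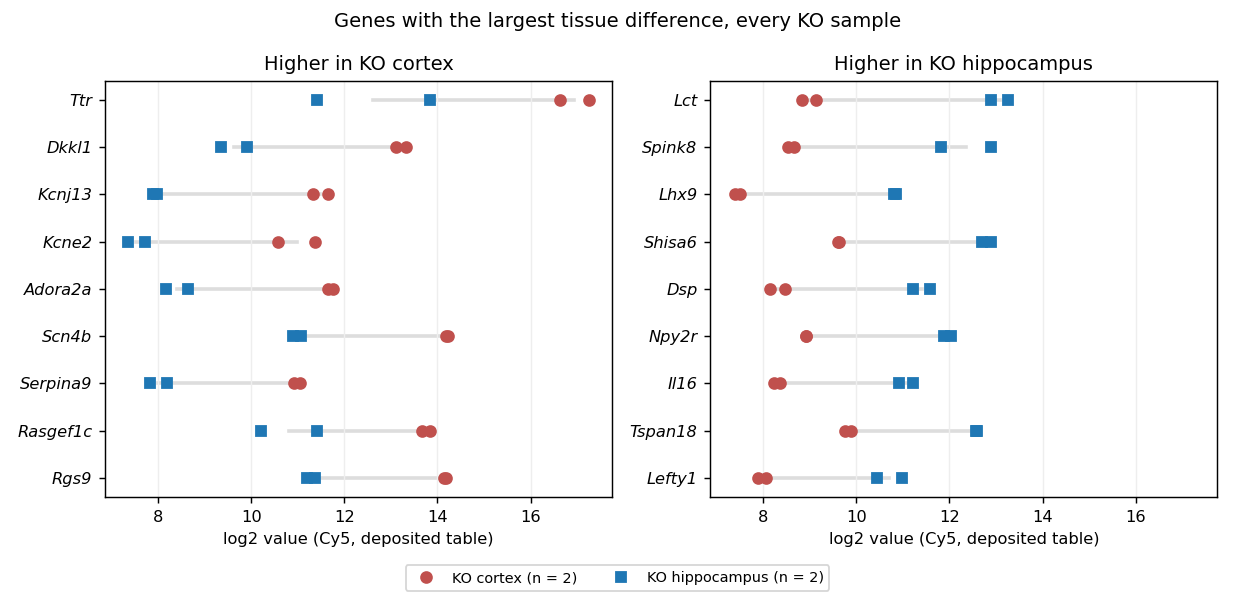
Log2 value of the deposited table (horizontal axis) for 9 of the 10 called genes with the largest difference in each direction (vertical axis) in each KO sample; circles are KO cortex (n = 2), squares KO hippocampus (n = 2), and the grey bar joins the tissue means. The 18 genes were picked for their large called differences, so the lack of overlap between tissues in each is no separate result. Over all genes, both cortex samples lay above both hippocampus samples for 28.4% and below for 31.7%. The hippocampus samples are widest apart for Ttr, at 11.40 and 13.83.

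Some genes were well above background in 1 KO tissue only, and their fold is a lower bound, taken from the mean of the bright tissue against, on each array of the dim one, the higher of the probe's own value and the lowest value among probes well above background. Slc9a4, a sodium-proton exchanger, measured 9.60 and 9.47 in hippocampus and was not well above background in cortex, at least 4.24-fold higher in hippocampus (adjusted p = 0.0010). C4bp, a regulator of complement, was at least 2.28-fold higher in hippocampus and the sulfotransferase Sult5a1 at least 2.20-fold. Tdo2, the tryptophan dioxygenase that also marks dentate granule neurons, was at least 2.07-fold higher, and the keratins Krt15 and Krt5 at least 1.98-fold and 1.86-fold. Tdo2 lost the call without cortex replicate 1 (adjusted p = 0.0778) or 2 (0.0735), and Krt15 without cortex replicate 1 (0.051). In the other direction, Sh3rf2 was at least 3.60-fold higher in cortex, the beta-defensin Defb11 3.47-fold, Ly6d 3.41-fold, the LIM-homeodomain factor Lhx8 3.08-fold and the sulfotransferase Sult1c2 2.51-fold. Tex22 was at least 2.76-fold higher in cortex (adjusted p = 0.038), and lost the call without cortex replicate 1 (0.051), hippocampus replicate 1 (0.074) or hippocampus replicate 2 (0.11). Its difference was then as low as 1.09, and it was 0.89 with every background value used and 0.76 as a mean over its probes, neither called (0.102 and 0.0526). Defb11 was not called with the array as a random block (0.113), nor was Tex22 (0.108). In WT, Sh3rf2, Ly6d and Lhx8 differed by 1.88, 1.33 and 1.73. Defb11, Tex22 and Sult1c2 were not tested in WT and differed there by -0.04, 0.13 and 0.47. Defb11 read 8.84 and 7.71 in WT cortex and 7.22 and 9.42 in WT hippocampus. The genes named above as higher in hippocampus differed in WT by -2.31 (Slc9a4) to -0.88 (Krt15).

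Marker lists of the hippocampal fields ran in the direction of the tissue labels in all 4 KO samples. Of 19 dentate granule neuron genes kept, 14 were called and all 14 were higher in hippocampus, with a median difference of -1.05 against -0.01 over all genes. Among the 19, 1 was not well above background on every KO array and was kept through 1 tissue. Prox1, the homeobox factor that specifies granule neurons, measured 8.03 and 8.11 in cortex and 9.64 and 9.68 in hippocampus, a difference of -1.59 ± 0.064 (adjusted p = 0.0011). The tissues stood well apart, with replicates close to each other. C1ql2, a synaptic organiser of granule cell axons, measured 8.13 and 7.91 against 10.42 and 10.91. Zbtb20, a repressor needed for hippocampal fate, differed by -1.56 ± 0.13. The calcium buffer Calb1 (-0.55) and Igfbp5 (0.31) were not called. The mean level of the list was 9.90 and 9.89 in the cortex samples and 11.28 in both hippocampus samples.

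Of 14 CA1 genes, 10 were called and all were higher in hippocampus, with a median difference of -0.71. Fibcd1, a membrane lectin, measured 8.18 and 8.14 in cortex and 10.94 and 10.46 in hippocampus, a difference of -2.54 ± 0.16. The integrin subunit Itga8 measured 9.15 and 9.16 against 10.33 and 10.28. Pou3f1, a POU-domain factor, differed by -1.17 ± 0.14 and was not called without cortex replicate 1 (adjusted p = 0.057). Wfs1, which is strong in CA1 but also marks superficial cortex and striatum, read 14.31 and 14.20 in cortex and 13.98 and 14.00 in hippocampus and was not called. The calls on this list fell to 6 and 5 without cortex replicate 1 and 2.

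Of 17 CA2 and CA3 genes kept, 10 were higher in hippocampus and 1 in cortex, with a median of -0.45. Cpne7, a copine, measured 13.34 and 13.37 in cortex and 15.66 and 15.81 in hippocampus, and Ntf3, the neurotrophin NT-3, 9.88 and 9.71 against 11.78 and 11.75. In both genes the tissues were far apart and the replicates close. Grik4, a kainate receptor subunit of CA3, differed by -1.30 ± 0.089, Amigo2, an adhesion molecule of CA2 and CA3, by -1.11 ± 0.079, and Rgs14, a signalling scaffold of CA2, by -0.86. The exception was Coch, an extracellular matrix protein, at 11.35 and 10.64 in cortex against 8.04 and 9.09 in hippocampus, a difference of 2.43 ± 0.41 that was not called without cortex replicate 1 (adjusted p = 0.095). The hippocampal calls of the list fell to 6 without either cortex replicate.

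Cortical upper-layer genes formed the mirror image. Of 15 kept, 10 were called higher in KO cortex and 2 higher in KO hippocampus, with a median difference of 1.23, and these counts were 10 and 2 whichever sample was left out. Rspo1, a secreted enhancer of Wnt signalling, measured 11.77 and 11.76 in cortex and 9.41 and 9.32 in hippocampus, 5.27-fold higher in cortex (adjusted p = 0.00081). Lamp5, listed on the array as 6330527O06Rik, measured 12.85 and 12.74 against 10.57 and 10.79. In both genes the cortex samples were close to each other and far from the hippocampus samples. Cux2, a homeobox factor of upper layers, differed by 1.93 ± 0.12 at its brightest probe and by 0.84 at a second, dimmer one. Rorb, the receptor of layer 4 identity, differed by 1.1. The 2 members higher in hippocampus were Mdga1, an adhesion modulator, at 10.97 and 11.05 against 13.01 and 12.78, and the sodium channel subunit Scnn1a (-0.88).

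Deep-layer genes were divided. Of 22 kept, 9 were higher in cortex, 4 higher in hippocampus and 9 not called, with a median of 0.29. Ctgf, which marks subplate-derived neurons, measured 13.05 and 13.29 in cortex and 11.29 and 11.48 in hippocampus, and Cplx3, a complexin of the same cells, 10.60 and 10.59 against 8.99 and 9.11. Both separated the tissues by far more than the spread within a tissue. The corticothalamic genes Syt6, Tbr1 and Foxp2 differed by 1.33, 1.33 and 1.23. Crym, a thyroid hormone-binding protein, went the other way at 14.23 and 14.12 against 15.73 and 15.74 (-1.56 ± 0.066), as did the subcerebral projection factors Bcl11b (-0.59) and Fezf2 (-0.28) and the ETS factor Etv1 (-0.53). The hippocampal count was 1 without cortex replicate 1.

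Of 49 kept transcription factors known from patterning and neuron identity of the pallium, 31 were called, beside 15.6% of all genes. Of these, 14 were higher in cortex and 17 in hippocampus, and the median was -0.06. On the cortical side stood Cux2, Tbr1, Meis2 (1.31) and Emx1 (0.77), a homeobox factor of dorsal pallium. Emx2, its relative with a graded medial expression in development, was higher in hippocampus (-0.56). The bHLH factors of excitatory neurons were all higher in hippocampus: Neurod6 measured 11.43 and 11.48 in cortex and 13.14 and 12.80 in hippocampus, Bhlhe22 11.33 and 11.37 against 12.51 and 12.67, and Neurod2 differed by -0.86. Each of these separated the tissues with little spread inside them. Nfib (-0.65) and Tcf4 (-0.57) were also higher in hippocampus, whereas Pax6 (-0.17), Lhx2 (-0.33) and Nr2f1 (0.27) were not called. Nr2f2 read 11.36 and 11.40 in cortex but 11.40 and 12.75 in hippocampus, so that its replicates disagreed by more than its tissues. The hippocampal calls of this list fell from 17 to 6 without cortex replicate 1 and to 10 without cortex replicate 2.

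**Figure D2:**
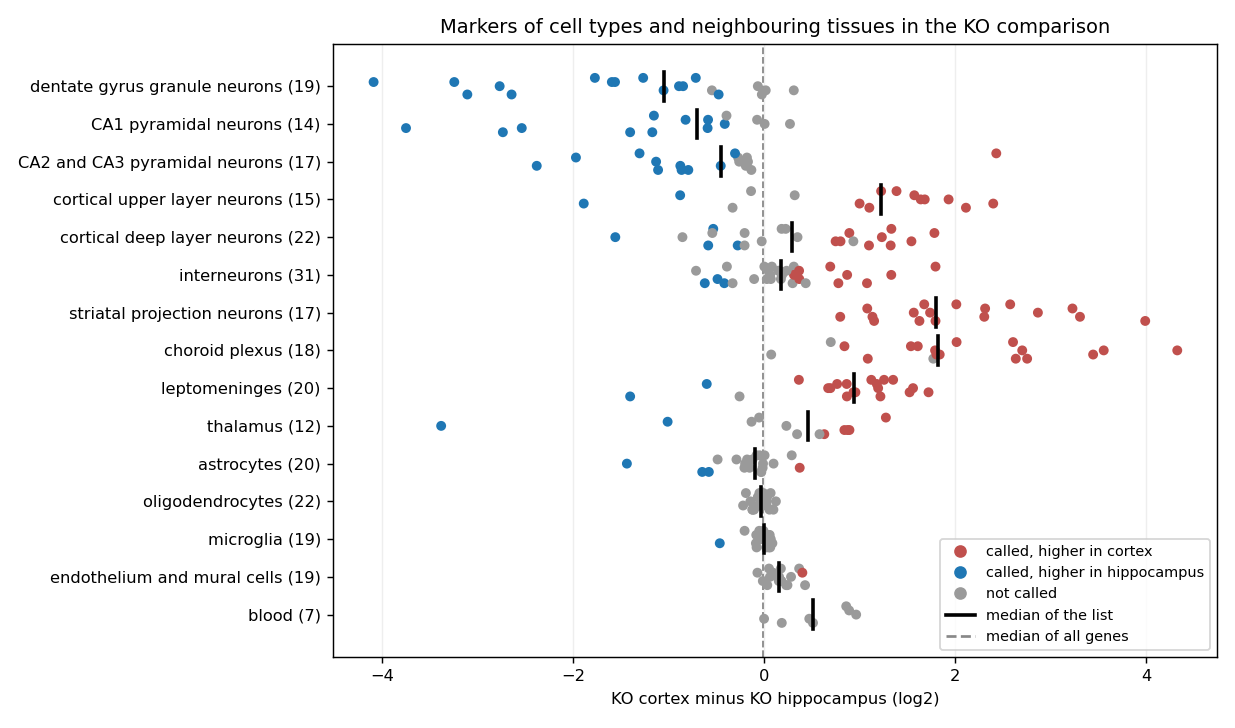
Difference KO cortex minus KO hippocampus (log2, horizontal axis) of every kept member of 15 marker lists (vertical axis, number of members in brackets); red points are called higher in cortex, blue points called higher in hippocampus, grey points not called, black ticks are list medians and the dashed line is the median of all genes. Dentate and CA lists lie to the left, upper-layer, striatal, choroid plexus and leptomeningeal lists to the right, and oligodendrocyte, microglia and astrocyte lists near 0, with medians of -0.03, -0.01 and -0.10.

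Striatal projection neuron markers were high in KO cortex in every kept member. All 17 of 17 were called higher in cortex, with a median difference of 1.79, and 16 or 17 were called whichever sample was left out. Of 18 genes listed, 1 was not kept. Of the 17, 2 were not well above background on every KO array and were kept through 1 tissue. The filter favours that tissue in the count. Ppp1r1b, the dopamine- and cAMP-regulated phosphoprotein DARPP-32, measured 15.31 and 15.21 in cortex and 12.59 and 12.77 in hippocampus. Drd1a, the dopamine D1 receptor, measured 10.11 and 10.25 against 8.22 and 8.66, and Drd2, the D2 receptor, 8.91 and 8.93 against 7.88 and 7.80. The tissues were apart in each of these, and the cortex replicates were close to each other. The mean of the 17 genes was 12.26 and 12.30 in the KO cortex samples and 10.08 and 10.34 in the KO hippocampus samples, and in WT 12.65 and 12.39 against 10.11 and 10.23, so that the same list stood apart in both genotypes (WT median 2.32). Isl1, a homeobox factor on this list, was at 8.08 and 8.06 in KO cortex and not well above background in hippocampus. Several of the 17 genes are also expressed at lower levels in cortex. The part of striatal tissue in the higher cortical values of dopamine, adenosine and opioid genes given below was not tested.

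Many choroid plexus and leptomeningeal genes were also higher in KO cortex. In WT 0 of those tested were called higher in cortex, but the difference between KO and WT was called for none of their members in limma. At an unadjusted limma p under 0.05 stood 8 of 18 and 17 of 20 members, beside 634 of 16799 genes in all. Of 18 choroid plexus genes, 15 were called higher in cortex and the other 3, Folr1, Lbp and Trpm3, had positive differences of 1.77, 0.70 and 0.07 without passing the test. The median was 1.82, and both cortex samples lay above both hippocampus samples for all 18, beside 28.4% of all genes. Of the 18, 3 were not well above background on every KO array and were kept through 1 tissue. Aqp1, the water channel of the epithelium, measured 11.24 and 10.36 in KO cortex and 7.74 and 8.35 in KO hippocampus, and Otx2, its homeobox factor, 11.16 and 10.50 against 8.36 and 8.02. Cortex replicate 1 was the higher cortex sample in both. In WT the list's median difference was -0.04 and 0 of the 10 members tested were called in limma (background 14.8%), and its mean level varied within tissues: 10.48 and 8.79 in WT cortex and 8.36 and 11.12 in WT hippocampus, against 11.02 and 10.36 in KO cortex and 8.49 and 8.77 in KO hippocampus. In a fit of all 8 samples with the array as a random block, Aqp1 (adjusted p = 0.11) and Otx2 (0.128) were not called, 1 of the 18 was called instead of 15, and with Feature Extraction's processed signals 7 were.

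Of 20 leptomeningeal genes, 17 were called higher in KO cortex and 2 higher in KO hippocampus, with a median of 0.95. Col1a2, a chain of type I collagen, measured 11.79 and 11.66 in cortex and 10.05 and 10.27 in hippocampus, and Mgp, matrix Gla protein, 12.28 and 12.37 against 10.93 and 11.21. Fmod, the proteoglycan fibromodulin, differed by 1.72 ± 0.20 and Aldh1a2, which makes retinoic acid in the meninges, by 1.22. These cortex samples were all above the hippocampus samples. Dcn, the proteoglycan decorin, was higher in hippocampus (12.54 and 12.50 against 13.47 and 14.37), and it also stands on the CA1 list. Without cortex replicate 1 the number called in cortex fell from 17 to 9, and Dcn was not called (adjusted p = 0.15), nor was it without cortex replicate 2 (0.14). The WT median of the list was -0.23, with 0 of 17 members tested called higher in cortex and 2 higher in hippocampus.

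Thalamic markers gave a mixed picture. Of 12 kept, 5 were called higher in KO cortex and 2 higher in KO hippocampus, and the mean level was 10.22 and 10.26 in KO cortex against 10.15 and 10.14 in KO hippocampus, whereas WT hippocampus replicate 2 stood at 11.34 against 10.21 to 10.23 in the other WT samples. Ramp3, a receptor activity-modifying protein, differed by 1.28 ± 0.16, and Rora, a nuclear receptor that cortical layer 4 also expresses, measured 11.40 and 11.38 against 10.51 and 10.52. Zic1 measured 11.21 and 11.33 in cortex and 10.54 and 10.33 in hippocampus at its brightest probe, but a dimmer probe of the gene differed by 0.08. Prkcd, a protein kinase C isoform, was higher in hippocampus (-1.01 ± 0.19), and lost the call without cortex replicate 1 (adjusted p = 0.14) or 2 (0.088). It also lost it with the array as a random block (0.281) or with processed signals (0.0582). The other hippocampal member is Lhx9. Without cortex replicate 2 the cortical calls were 3, and Ramp3 was not called (0.051). With the array as a random block 0 of the 12 were called higher in cortex in limma, among them Ramp3 (0.145), Rora (0.0789) and Zic1 (0.176), and 1 was called higher in hippocampus.

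**Figure D3:**
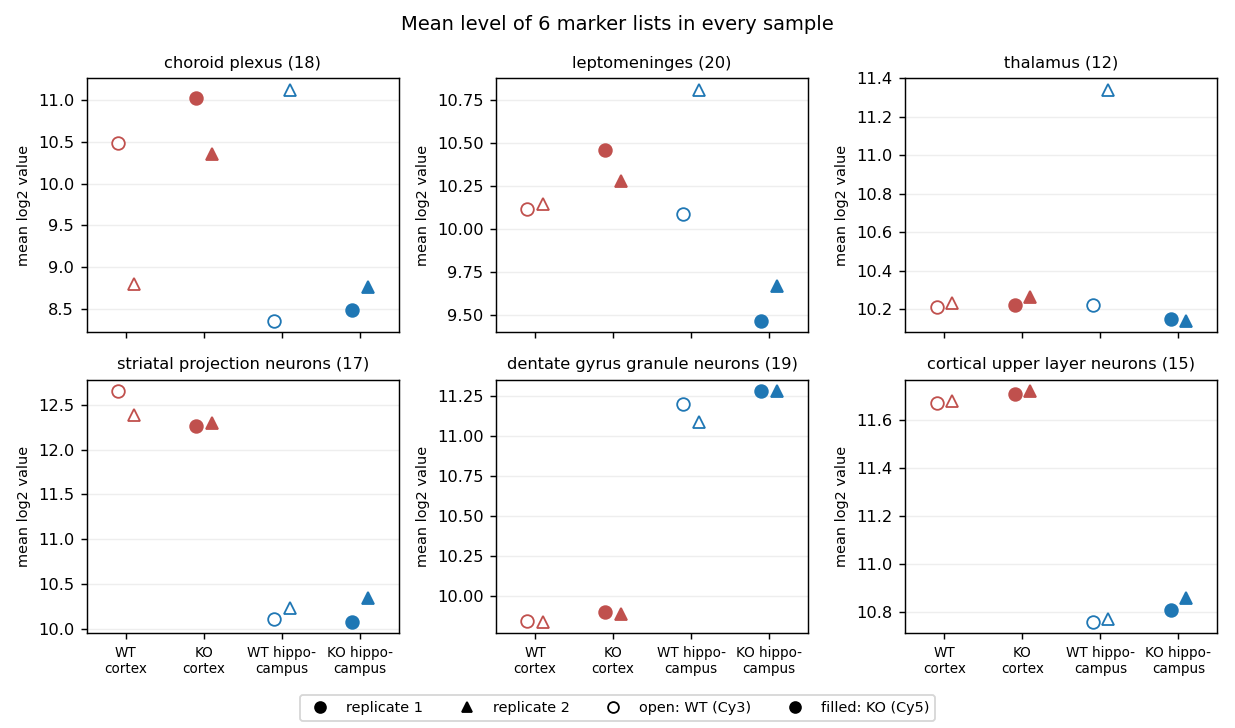
Mean log2 value of the kept members of 6 marker lists (vertical axis, a scale of its own in each panel) in every sample, with the number of members in brackets; open symbols are WT (Cy3), filled symbols KO (Cy5), circles replicate 1 and triangles replicate 2. Dentate, upper-layer and striatal means separate the tissues in both genotypes, whereas the choroid plexus mean separates them in KO (10.36 and above against 8.77 and below) and is spread within both WT tissues.

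Glial, vascular and blood lists were set beside the 15.6% called over all genes. None of the 22 oligodendrocyte genes was called in limma, and none had an unadjusted p under 0.05. Mag, a myelin-associated glycoprotein, read 14.00 and 14.27 in cortex and 14.25 and 13.89 in hippocampus. The samples of the tissues interleaved, as they did for Cnp, an enzyme of myelin. Of 19 microglial genes 1 was called, Itgam (-0.46), which lost the call without either cortex replicate (adjusted p = 0.18 and 0.15) and whose 2 other probes differed by -0.02 and -0.07. Of 20 astrocyte genes, 3 were higher in hippocampus and 1 in cortex, 20% in all. Gfap, the intermediate filament of astrocytes, measured 11.52 and 11.19 against 13.10 and 12.48, a difference of -1.44 ± 0.23 that missed the call without cortex replicate 1 (adjusted p = 0.060) or 2 (0.085). Fabp7 (-0.65) and Agt (-0.58) were also higher in hippocampus and lost the call without cortex replicate 1 (0.12 and 0.14), Fabp7 also without hippocampus replicate 2 (0.0839) and Agt with the array as a random block (0.0923) or processed signals (0.0884), while Slc1a2, Aldoc and S100b differed by -0.03, -0.01 and 0.00. No astrocyte gene was called in limma without cortex replicate 1 or 2. Among 19 endothelial and mural genes, Vtn alone was called (0.40), and it lost the call without cortex replicate 1 (adjusted p = 0.114), cortex replicate 2 (0.149) or hippocampus replicate 1 (0.089). The haemoglobin gene Hba-a1 read 11.73 and 11.16 in cortex and 11.09 and 9.87 in hippocampus, lower in replicate 2 of each tissue. Of 7 blood genes 0 were called in limma, and 0 had an unadjusted p under 0.05, but 3 were called higher in cortex without hippocampus replicate 1.

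Interneuron genes leaned to cortex in part. Of 31 kept, 9 were higher in cortex and 3 in hippocampus, with a median of 0.18. Over all genes the shares were 8.49% and 7.08%, and the hippocampal count is near its share. The general markers Gad1 (0.15), Gad2 (0.31) and Slc32a1 (0.44), which make GABA and load it into vesicles, were not called. Pvalb, the calcium buffer of fast-spiking cells, measured 13.90 and 13.93 in cortex and 13.11 and 12.98 in hippocampus, a difference of 0.87 ± 0.071 (adjusted p = 0.0037). Crh measured 10.52 and 10.54 against 9.08 and 9.32, and in both genes the tissues were clearly apart. Vip (1.08) and Npy (0.78) were called, but not without cortex replicate 1 (adjusted p = 0.062 and 0.11) or 2 (0.080 and 0.11). Sst, the most abundant peptide of these cells, read 15.07 and 15.15 against 14.77 and 14.98 and was not called. Lhx6, the fate factor of Pvalb and Sst cells, was higher in hippocampus (-0.49), as was the serotonin receptor subunit Htr3a (-0.62). The counts were 4 in cortex and 0 in hippocampus without cortex replicate 1 or 2.

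Of 32 neuropeptide genes, 7 were higher in cortex and 4 in hippocampus, beside 8.49% and 7.08% of all genes. Penk, which encodes the enkephalins, measured 15.87 and 16.04 in cortex and 13.23 and 14.05 in hippocampus, 4.97-fold higher in cortex. Tac1, the substance P precursor, measured 13.28 and 13.22 against 11.26 and 11.65. Both belong to the striatal list. Pdyn, the dynorphin precursor, differed by 1.19 ± 0.10. On the hippocampal side, Nts, neurotensin, measured 9.71 and 9.47 in cortex and 11.41 and 11.10 in hippocampus (-1.66 ± 0.14), and Grp, gastrin-releasing peptide, 11.61 and 11.43 against 12.63 and 12.59. Cck was the same in all 4 samples, between 17.31 and 17.33, near the top of the array's range, where a difference may not register. Trh spread more within hippocampus, at 7.58 and 11.56, than between tissues. The cortical count fell to 4 without cortex replicate 1 or 2.

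Neuropeptide receptors did not follow their ligands in one direction. Of 29 kept, 8 were higher in cortex and 5 in hippocampus. Cckbr, the cholecystokinin B receptor, measured 14.05 and 13.84 in cortex and 11.17 and 12.02 in hippocampus, 5.11-fold higher in cortex, and it missed the call without cortex replicate 1 (adjusted p = 0.056). Crhr1, the corticotropin-releasing hormone receptor, differed by 1.08 ± 0.075, the same direction as Crh. Npy2r and Npy5r (-0.45) were higher in hippocampus while Npy was higher in cortex. Sstr2 was higher in cortex (0.83) and Sstr3, a receptor of neuronal cilia, in hippocampus (-0.50). Sstr2 lost the call without cortex replicate 1 (0.068). The counts then fell to 2 in cortex and 1 in hippocampus, and without cortex replicate 2 to 4 and 1.

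Ionotropic glutamate receptors showed subunit-specific differences. Gria1, the AMPA receptor subunit GluA1, measured 11.93 and 12.0004 in cortex and 13.65 in both hippocampus samples (chr11:57143613-57143672), a difference of -1.68 ± 0.062 (3.21-fold higher in hippocampus, adjusted p = 0.0011). Grin2a, the NMDA receptor subunit GluN2A, measured 11.31 and 11.34 against 12.16 and 12.04. Both had nearly equal cortex replicates and no overlap. Grik4 was the other clear hippocampal member (above). Grik3, another kainate receptor subunit, was higher in cortex, at 12.15 in both samples against 11.17 and 11.36. Gria4 was 0.57 higher in cortex and Gria2 0.41 higher in hippocampus, and neither was called without cortex replicate 1 (adjusted p = 0.066 and 0.061), cortex replicate 2 (0.094 and 0.16) or hippocampus replicate 1 (0.054 and 0.14), nor was Gria2 without hippocampus replicate 2 (0.105). The obligatory NMDA subunit Grin1 read 12.68 and 12.72 against 12.63 and 12.66, and Gria3 and Grin2b were not called. In all, 4 of 18 were higher in hippocampus and 2 in cortex, beside 7.08% and 8.49% of all genes, and the cortical count is near its share.

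Of 7 metabotropic glutamate receptors, the presynaptic receptors Grm8 and Grm4 were higher in cortex. Grm8 measured 11.33 and 11.17 against 10.14 and 10.37, and Grm4 10.42 in both cortex samples against 9.78 and 9.62. Grm5, the postsynaptic receptor that couples to phospholipase C, measured 14.16 and 14.11 against 14.59 and 14.70 (-0.51 ± 0.069). It lost the call without cortex replicate 1 (adjusted p = 0.072) or 2 (0.076), and of its 2 other probes 1 differed by -0.34 and 1 by 0.06. The remaining 4 were not called.

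GABA-A receptor subunits divided by subunit in the same way, 3 of 12 kept being higher in each tissue and the median being 0.11. Gabra5, the alpha5 subunit of extrasynaptic receptors in hippocampal pyramidal neurons, measured 11.53 and 11.49 in cortex and 13.45 and 13.19 in hippocampus, 3.5-fold higher in hippocampus (adjusted p = 0.0018). Gabrd, the delta subunit of another class of extrasynaptic receptors, measured 14.24 and 14.18 against 12.87 and 12.89, 2.52-fold higher in cortex. The tissues were wide apart in both, in opposite directions. Gabra2 (-0.72) and Gabrb1 (-0.49) were higher in hippocampus, and Gabrg3 (0.41) higher in cortex. Gabrb1 and Gabrg3 lost the call without cortex replicate 1 (adjusted p = 0.0955 and 0.135) or 2 (0.0668 and 0.0966), and Gabrg3 also without hippocampus replicate 1 (0.069). The cortical count was 1 without cortex replicate 1 or 2, and the hippocampal count 2.

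Receptors for neuromodulators were called in 19 of 37 kept genes, 11 higher in cortex and 8 in hippocampus, beside 15.6% of all genes called. Adora2a, Drd1a and Drd2, which head the cortical side, are striatal list members. The histamine receptors Hrh3 (0.93) and Hrh1 (0.83), the beta-1 adrenoceptor Adrb1 (0.77) and the alpha-1B adrenoceptor Adra1b (0.51) were higher in cortex as well. Several serotonin receptors stood on the hippocampal side: Htr4 measured 8.17 and 8.25 in cortex and 10.17 and 9.99 in hippocampus, a difference of -1.87 ± 0.085, and Htr5b 7.94 and 8.24 against 9.56 and 9.66. Htr1a differed by -0.59, while Htr2a (0.52), Htr2c (-0.06) and Htr7 (0.01) were not called. Drd5, the D5 dopamine receptor, measured 7.71 and 7.80 against 9.48 and 9.22, opposite to Drd1a, its closest relative. Nr3c2, the mineralocorticoid receptor, measured 8.32 and 8.30 in cortex and 9.73 and 9.52 in hippocampus (2.48-fold higher in hippocampus, adjusted p = 0.0025), and Nr3c1, the glucocorticoid receptor, was not called (0.29). The muscarinic M1 receptor Chrm1 was higher in hippocampus (-0.51). The cortical count was 6 without cortex replicate 1 or hippocampus replicate 1 and 7 without cortex replicate 2, and the hippocampal count was 5 without cortex replicate 2.

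**Figure D4:**
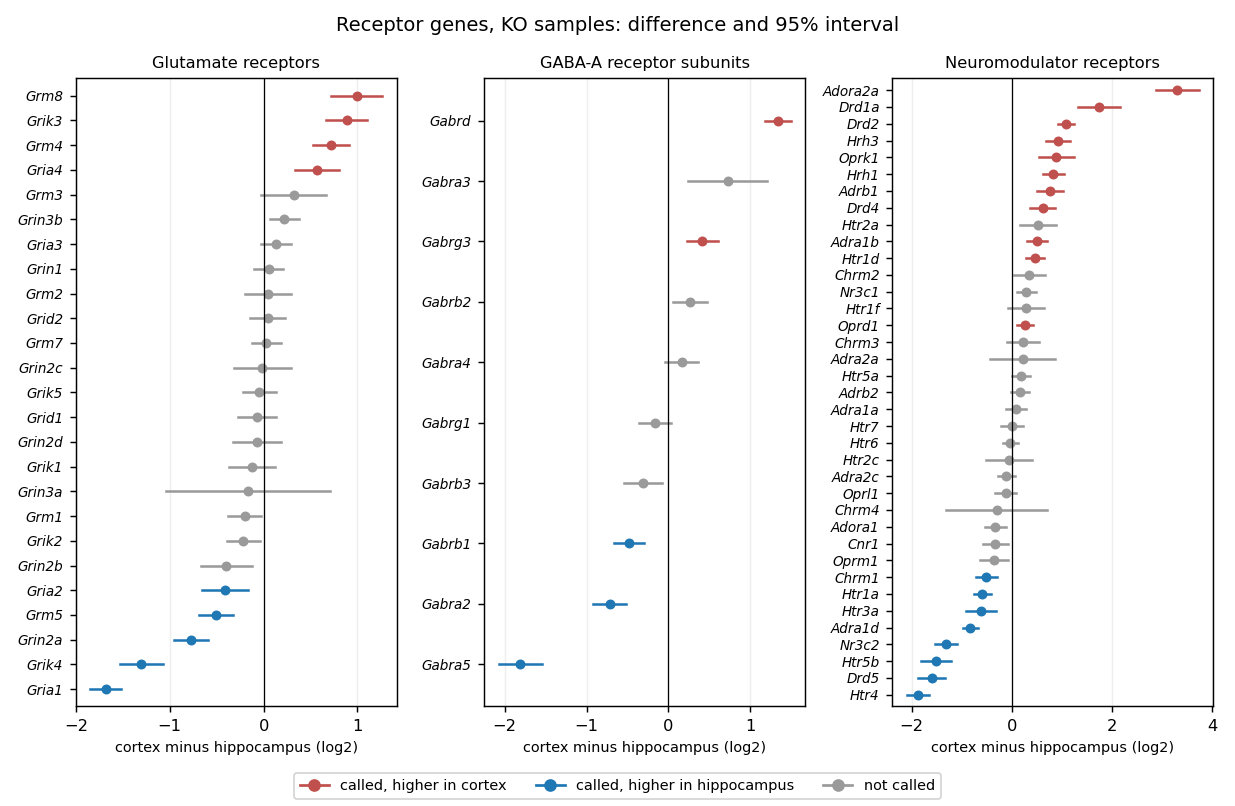
Difference KO cortex minus KO hippocampus (log2, horizontal axis) with its 95% interval from the limma fit (n = 2 per tissue) for glutamate receptor, GABA-A receptor (10 of the 12 kept) and neuromodulator receptor genes (vertical axis); red is called higher in cortex, blue called higher in hippocampus, grey not called. Gria1, Gabra5 and Htr4 lie furthest to the hippocampal side of their panels, and Grm8, Gabrd and Adora2a furthest to the cortical side.

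Voltage-gated potassium channel genes leaned to cortex, with 14 of 40 kept higher there and 4 in hippocampus (median 0.13). Beside 8.49% and 7.08% of all genes, the hippocampal count is near its share. The ether-à-go-go family contributed many: Kcnh5 measured 10.13 and 10.05 in cortex and 8.71 and 8.70 in hippocampus, Kcnh4 differed by 1.23, Kcnh1 by 0.78, Kcnh3 by 0.55, Kcnh7 by 0.50 and Kcnh2 by 0.33. Kcnab3, an auxiliary beta subunit, measured 11.93 and 11.97 against 10.67 and 10.63. Kcng2, a silent subunit that modifies Kv2 channels, ran the other way at 8.31 and 8.33 against 10.07 and 10.103 (-1.77 ± 0.059). Replicates were close in all of these. The cortical count fell to 7, and the hippocampal to 1, without cortex replicate 1 or 2.

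Calcium- and cAMP-dependent signalling genes were called in 22 of 42, beside 15.6% of all genes. Of these, 12 were higher in cortex and 10 in hippocampus, and the median was -0.04. Rgs4, a brake on G protein signals, measured 14.83 and 14.62 in cortex and 13.29 and 13.34 in hippocampus, and Camk4, a nuclear calmodulin kinase, 14.05 and 13.96 against 12.97 and 13.06. Pde10a (1.57) and Adcy5 (1.15), also higher in cortex, belong to the striatal list. Of the kinase kinases upstream of Camk4, Camkk2 was higher in cortex (0.89) and Camkk1 in hippocampus (-0.57). The classical protein kinase C genes divided too: Prkca measured 13.96 and 13.86 against 14.88 and 14.74, Prkcc, the gamma isoform, differed by -0.67 and Prkcb by 0.50. Each of these pairs thus had members on both sides. Camk2b was higher in hippocampus (-0.43) and Camk2g in cortex (0.43), whereas Camk2a (-0.35) was not called. Without cortex replicate 1 the counts were 7 and 2, and without cortex replicate 2 the hippocampal count was 6.

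Of 49 immediate-early and activity-regulated genes kept, 18 were called higher in KO cortex (8.49% over all genes), 5 higher in KO hippocampus (7.08%) and 26 not called, with a median of 0.29. The cortical count was 8 without cortex replicate 1. Of those called in cortex, 13 had an entry in the RefSeq promoter table, and 9 of these held the core of the cAMP response element (TGACGT on either strand, read as ACGTCA on the other) within the 250 bases before the start. Over the whole list, 18 of 38 members with an entry held it (47.4%), against 1971 of 27025 genes in the table (7.29%), and this difference was not tested. The full palindrome TGACGTCA, in which the cores of both strands overlap, occurred in 5 of the 38 list members and in 1.77% of genes. The following windows (RefSeq, GRCm38.p6, 5′ to 3′, ending at the base before the start) show the called genes with the largest differences and a single entry, with every core in capitals, and Fosb as one without a core.
Npas4 (chr19:4989972-4990221, minus strand): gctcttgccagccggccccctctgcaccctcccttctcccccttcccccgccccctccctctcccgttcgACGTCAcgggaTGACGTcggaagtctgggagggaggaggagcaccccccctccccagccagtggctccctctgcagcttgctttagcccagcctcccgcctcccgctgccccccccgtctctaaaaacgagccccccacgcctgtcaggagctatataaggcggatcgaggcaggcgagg
Fos (chr12:85473640-85473889, plus strand): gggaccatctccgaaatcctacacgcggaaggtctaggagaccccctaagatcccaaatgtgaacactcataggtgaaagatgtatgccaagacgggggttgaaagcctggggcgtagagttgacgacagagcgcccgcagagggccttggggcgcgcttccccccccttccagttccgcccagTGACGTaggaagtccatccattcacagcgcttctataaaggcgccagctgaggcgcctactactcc
Dusp1 (chr17:26508473-26508722, minus strand): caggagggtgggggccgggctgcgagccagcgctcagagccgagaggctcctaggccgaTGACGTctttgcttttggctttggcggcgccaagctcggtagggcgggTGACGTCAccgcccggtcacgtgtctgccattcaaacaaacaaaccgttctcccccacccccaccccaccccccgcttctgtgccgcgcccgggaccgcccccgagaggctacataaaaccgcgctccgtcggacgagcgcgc
Fosb (chr7:19310046-19310295, minus strand): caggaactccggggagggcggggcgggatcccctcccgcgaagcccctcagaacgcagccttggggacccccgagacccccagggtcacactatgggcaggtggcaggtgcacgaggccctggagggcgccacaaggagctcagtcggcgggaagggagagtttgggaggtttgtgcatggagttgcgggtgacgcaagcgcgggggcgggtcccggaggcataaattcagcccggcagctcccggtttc

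In Npas4 the cores begin 180 and 169 bases before the start, in Fos 66 bases before it, and in Dusp1 at 191 and in a palindrome at 143. Npas4, a neuron-specific transcription factor induced by calcium entry, measured 11.89 and 12.02 in KO cortex and 10.01 and 10.20 in KO hippocampus, 3.60-fold higher in cortex (1.85 ± 0.092, adjusted p = 0.0015). Fos measured 11.06 and 10.88 against 9.38 and 9.62, 2.77-fold higher in cortex, and the phosphatase gene Dusp1, a brake on MAP kinases, 11.11 and 10.93 against 9.82 and 9.93, 2.22-fold. In all 3 genes both cortex samples lay clear of both hippocampus samples. Fosb, whose printed window has no core, still differed by 0.92. Nr4a1, next by the same rule, differed by 0.80, and its window, not printed, has no core either.

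The early growth response genes gave Egr2 at 10.98 and 10.90 against 8.76 and 9.5, and Egr1 at 14.44 and 14.50 against 13.13 and 13.39 (1.21 ± 0.10), both higher in cortex. Egr2 lost the call without cortex replicate 1 (adjusted p = 0.068) or 2 (0.057). Egr3 read 7.54 and 7.47 against 7.46 and 7.43, close to background in all samples. Among effectors, Arc, which drives AMPA receptor endocytosis, measured 14.91 and 14.90 in cortex and 14.16 and 14.12 in hippocampus, Nptx2 differed by 0.73 and Homer1 by 0.44. The 5 genes on the hippocampal side were Jun, Bdnf, Fosl2, Dusp4 and Ptgs2. Jun measured 12.10 and 12.38 against 13.14 and 13.41 (-1.04 ± 0.14) and was not called without cortex replicate 1 (adjusted p = 0.054). Bdnf, brain-derived neurotrophic factor, measured 11.09 and 10.96 against 11.72 and 11.83, the opposite direction to Npas4, which is known to activate it. The orphan receptors of the Nr4a family were unequal, with Nr4a1 called (0.80) and Nr4a2 (0.18) and Nr4a3 (-0.20) not. In WT the median was 0.22, and of 43 members tested 11 were called higher in cortex and 4 higher in hippocampus.

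**Figure D5:**
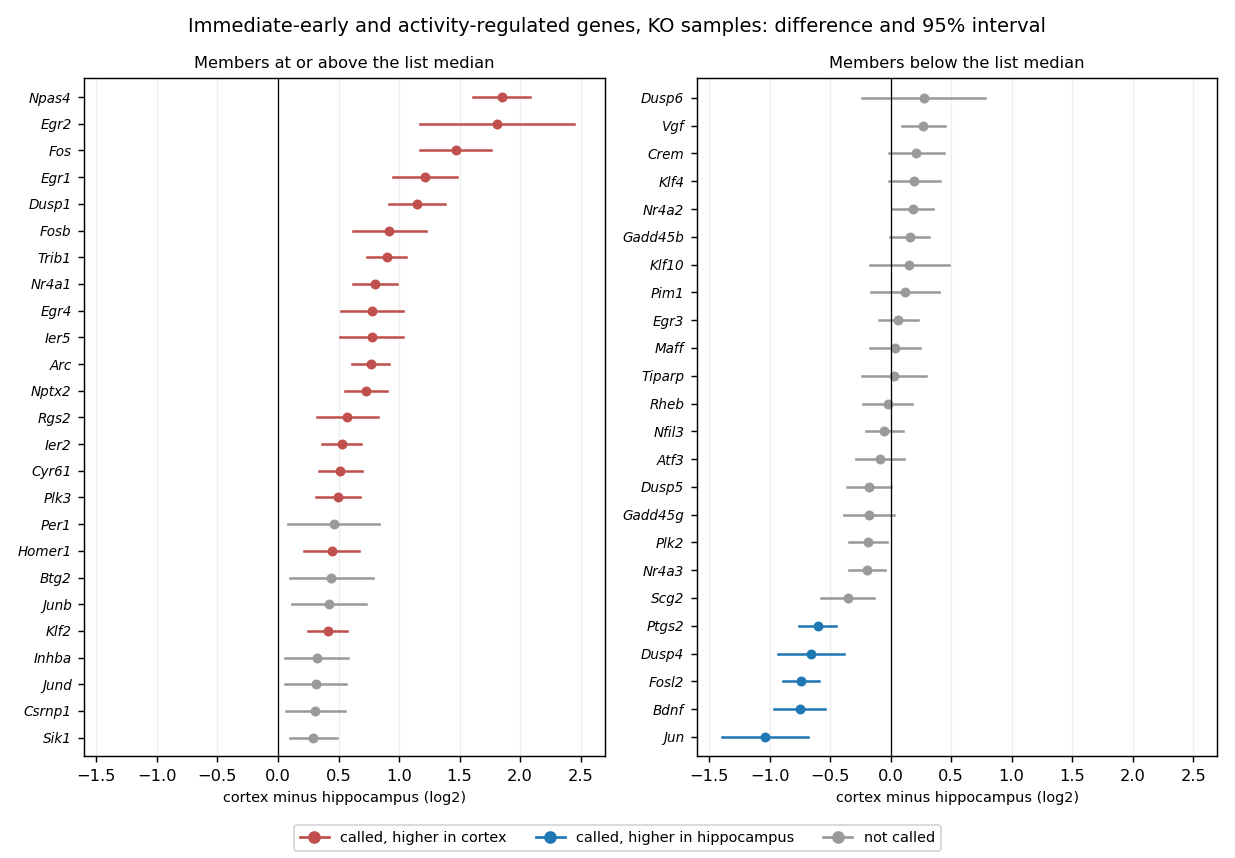
Difference KO cortex minus KO hippocampus (log2, horizontal axis, same range in both panels) with its 95% interval from the limma fit (n = 2 per tissue) for the 49 kept immediate-early and activity-regulated genes (vertical axis), ordered by size; red is called higher in cortex, blue called higher in hippocampus, grey not called. Npas4, Egr2 and Fos are furthest to the cortical side and Jun and Bdnf furthest to the hippocampal side.

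Axon guidance genes were called in 24 of 55, 8 higher in cortex and 16 in hippocampus, with a median of -0.03, beside 15.6% of all genes called. Among ligands, Sema3a, a repellent semaphorin, measured 10.77 and 10.80 in cortex and 8.42 and 8.94 in hippocampus, and Sema3f differed by 1.52. Their receptors Nrp1 (-1.22) and Nrp2 (-1.18) were higher in hippocampus: Nrp1 read 8.48 and 8.49 against 9.74 and 9.66. Another semaphorin, Sema5a, was higher in hippocampus (-1.77), and another semaphorin receptor, Plxnd1, higher in cortex (1.57), so that both ligands and receptors were found on each side. Slit1, a midline repellent, measured 12.30 and 12.33 in cortex and 14.15 and 14.30 in hippocampus (-1.91 ± 0.075), Slit3 differed by -0.58 and the Slit receptor Robo1 by -0.58. Of the Eph receptors, Epha6 (-1.47), Epha7 (-1.34), Epha4 (-0.90), Epha5 (-0.71) and Epha3 (-0.49) were higher in hippocampus and Epha8 (1.38) and Ephb6 (0.68) in cortex, and the ephrin Efna5 was higher in cortex (1.4). The counts in cortex and hippocampus were 5 and 8 without cortex replicate 1, and 5 and 10 without cortex replicate 2.

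Cadherins and protocadherins were called in 12 of 26, 7 higher in cortex and 5 in hippocampus, beside 15.6% of all genes called. Pcdh20 measured 11.19 and 11.31 in cortex and 13.93 and 13.99 in hippocampus, 6.57-fold higher in hippocampus (adjusted p = 0.00081), and Pcdh8 11.70 and 11.69 against 12.64 and 12.94. Cdh9, which takes part in the synapses of granule cell axons on CA3 neurons, differed by -0.89. Pcdh10 measured 13.00 and 13.10 against 12.15 and 12.32, higher in cortex. Cdh22 (0.89) and Cdh7 (0.997) were called too, but not without cortex replicate 1 (adjusted p = 0.066 and 0.13) or 2 (0.058 and 0.11). The cortical count fell to 1 and 2 without these replicates, while the hippocampal count was 3 without cortex replicate 1.

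Of 38 genes of Wnt signalling kept, 6 were higher in cortex and 3 in hippocampus, beside 8.49% and 7.08% of all genes, and the hippocampal share is near that background. The ligands Wnt10a, at 12.47 and 12.40 against 11.01 and 10.96, and Wnt9a, at 11.62 and 11.65 against 10.63 and 10.43, were higher in cortex. Wnt7a (-0.48) and Wnt7b (-0.40) were higher in hippocampus, as was the intracellular inhibitor Nkd2 (-0.93 ± 0.081). The secreted inhibitors Sfrp5 (1.39) and Sfrp1 (1.02) were higher in cortex, and in WT they differed by 0.31 and 0.56. Sfrp5 lost the call with the array as a random block (adjusted p = 0.186) and with processed signals (0.0886), where its difference was 2.35. Choroid plexus and meninges also express secreted inhibitors of this family, and the part of those tissues in the 2 values was not tested. The counts without cortex replicate 1 or 2 were 4 and 1.

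Genes of neural progenitors and immature neurons divided evenly, 4 of 17 kept being higher in each tissue. Hopx, which marks the stem cells of the adult dentate gyrus and also astrocytes, measured 12.32 and 12.25 in cortex and 13.50 and 13.37 in hippocampus (-1.15 ± 0.073), and Igfbpl1 differed by -0.42. Dcx, the doublecortin of migrating neurons, was 0.69 higher in cortex, at 10.57 and 10.37 against 9.70 and 9.86, but by 0.14 only at a dimmer probe, and it was not called without cortex replicate 1 (adjusted p = 0.070). Mki67 and Sox2 were not called. Without cortex replicate 1 the counts were 0 in cortex and 1 in hippocampus, without cortex replicate 2 they were 2 and 1, and without hippocampus replicate 2 they were 2 and 2.

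Of 33 genes of DNA methylation and demethylation kept, 2 were higher in cortex and 2 in hippocampus, 12.1%, a share near the 15.6% over all genes. Dnmt3a, the main de novo methyltransferase of neurons, read 12.27 and 12.29 in cortex and 12.02 and 12.11 in hippocampus, and was not called. The 4 called genes were Cxxc5 (0.40), Gadd45a (0.35), Zbtb2 (-0.46) and Dnmt3l (-0.52), and all 4 lost the call without cortex replicate 1 (adjusted p = 0.135, 0.165, 0.107 and 0.0637) or cortex replicate 2 (0.0879, 0.116, 0.129 and 0.0869). Leaving out hippocampus replicate 1 ended the calls of Gadd45a (0.053) and Zbtb2 (0.066), and leaving out hippocampus replicate 2 those of Cxxc5 (0.070) and Gadd45a (0.089).

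The same tissue difference was tested in the WT samples of the same arrays. Of the 2617 genes called in KO, 2286 could be tested in WT, and 2178 of these differed in the same direction there, 1491 of them called. The opposite direction was called for 2. In WT, 1976 of 13383 genes were called (14.8%), 7.45% higher in cortex and 7.32% higher in hippocampus. The difference of the 2 tissue contrasts, tested on the KO over WT ratios of the 4 arrays, passed the threshold in limma for 0 of 16799 genes, with 634 at an unadjusted p under 0.05. With 2 ratios per tissue, a count of 0 does not show that the tissue differences were equal in KO and WT. The 6 smallest p-values belonged to Slc6a13, Gjb2, Ptgds, Prdm12, Lum and Abi3bp, and all had an adjusted p of 0.73. Of these, Slc6a13, Gjb2 and Lum are on the leptomeningeal list, and Ptgds encodes a prostaglandin synthase that meninges and choroid plexus secrete. Gjb2 measured 10.99 and 10.98 in KO cortex and 9.73 and 9.99 in KO hippocampus, a difference of 1.12 ± 0.10 where WT had -0.22. Prdm12 was well above background in KO hippocampus only and was not called there (-0.28, adjusted p = 0.078) where WT had -0.99. Its mean KO level was 7.51, near the background. In limma it was called with processed signals (-2.56, adjusted p = 0.0232) and with the array as a random block (-0.28, 0.0405). Abi3bp, an extracellular matrix protein, differed by 0.97 in KO and 1.61 in WT. The mean leptomeningeal level was 10.46 and 10.28 in KO cortex, 9.47 and 9.67 in KO hippocampus, 10.12 and 10.15 in WT cortex and 10.09 and 10.81 in WT hippocampus, and its part in these genes was not tested.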

How the data were processed

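RNA of 8 samples was measured on 4 two-colour Agilent arrays of 1 slide, with Cy3 for WT and Cy5 for KO, from 0.5 µg of total RNA per the labels' protocols. Per the file headers, Agilent's Feature Extraction software, version 10.1.1.1, made the scanner intensity values. The deposited log2 value table holds 1 column per sample, and limma is named, without role or version, in the submitters' processing notes. How its background was corrected and its columns normalized is not given in those notes.

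The brightest probe stood for each gene name. Tissues were compared with limma 3.58.1 (lmFit and eBayes, R 4.3.3) on the 4 KO columns, with Benjamini-Hochberg adjustment over 16800 genes. The 4 WT columns were fitted separately, and KO over WT ratios were fitted for the difference of tissue differences. Alternatives were other background correction, normalization, filters and blocks, and leaving out each sample. The fit was tested on simulated data. Named genes were the 10 largest called differences in each direction, the 6 largest lower bounds in each direction, up to 6 called members of each list with the largest difference and any member needed to describe it, the 3 Tet genes, and the 6 smallest p-values of the KO and WT difference. The members and lists were chosen with earlier results of these data known. Promoter windows are RefSeq's, in GRCm38.p6, and probe positions are the files', in mm9. Some genes are not reported here.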

Additional observations from a re-analysis of the deposited data

Results flagged for a closer look

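In 4 genes named here both KO cortex samples lay above both KO hippocampus samples, and both WT cortex samples below both WT hippocampus samples. The difference between the genotypes was tested in limma, and none of the 4 passed the threshold after adjustment over all genes. For Slc6a13, a GABA and taurine transporter of the meninges, the KO difference of 1.19 and the WT difference of -0.52 were 1.71 apart on the log2 scale (unadjusted p = 4.83e-05, adjusted p = 0.731). For Ptgds they were 0.94 and -0.62, 1.56 apart (adjusted p = 0.731). For Vtn they were 0.40 and -0.44, 0.84 apart (adjusted p = 1). For Zic1 they were 0.84 and -1.26, 2.10 apart (adjusted p = 1), and a second Zic1 probe differed by 0.08 between the KO tissues. Zic1 is on the thalamic list, whose mean was 11.34 in WT hippocampus replicate 2 and 10.21 to 10.23 in the other WT samples. The leptomeningeal mean, which includes Slc6a13, was also highest in that sample, at 10.81. The part of that sample in these differences was not tested.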

How the results depend on the processing

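All 2617 genes called in KO kept their sign in the alternatives, except that 2598 did when every scanner background value was used and 2615 with the mean of a gene's probes, and 2442 were present under the strict filter. With every background value used, 926 genes were called higher in cortex and 1172 in hippocampus, a split of 44.1% against 54.5% higher in cortex in the deposited table. Leaving out a sample gave 468 to 1109 genes higher in cortex and 357 to 880 higher in hippocampus in KO, and 782 to 1906 called in WT. Tet1 turned to 0.056 with every background value used and to 0.054 without cortex replicate 1. Tet3 turned to -0.118 with every background value used, to -0.0091 after quantile normalization, to -0.049 without cortex replicate 1 and to -0.053 without hippocampus replicate 1. Leaving out each sample in turn gave -0.1367 to 0.054 for Tet1 and -0.053 to 0.05907 for Tet3. The cause was not tested. Of 161 named genes called, 60 lost the call in at least 1 setting, 25 of them only when a sample was left out. With processed signals 19 named genes lost it, among them Coch (adjusted p = 0.0633), Dcn (0.0709), Cdh7 (0.0798), Cdh22 (0.0568) and Itgam (0.127). With every background value 9 did, among them Gria4 (0.117), Gabrg3 (0.088), Cxxc5 (0.0713), Gadd45a (0.0506) and Vtn (0.0973).

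With the replicate number as a block, 1767 genes were called higher in cortex, 1404 higher in hippocampus, 2276 in WT, and 9 for the difference between KO and WT, and 5 of 7 blood genes were called higher in KO cortex. Deviations of same-numbered samples correlated at 0.257 in KO and -0.083 in WT over 2 pairs, too few to show whether same-numbered samples are paired.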
